A study of Mus musculus with 6 samples.

Results

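The Hedgehog pathway genes examined here are Shh, Ptch1, Smo, Gli1, Gli2, Gli3, Sufu, Hhip and Boc, 9 genes chosen by name and read by every probe set whose annotated symbol is exactly one of them. This gave 24 probe sets of the 45037 on the array that are not controls, and 9 of the 18193 genes that a probe set reads alone. The arrays compared left with right cervical motoneurons of HB9::GFP transgenic mice at E11.5, and asked which transcripts differ between the sides of the cord. GFP-marked regions of 3 littermate embryos were laser-captured from frozen sections, so that the left group and the right group hold 1 pool per embryo each and 6 arrays in all. Every pool carried the same transgene and none was treated. The reporter follows the promoter of Hb9 (Mnx1), and the capture takes whatever lies among the marked cells, so that fewer cells of a type and less RNA per cell cannot be told apart. The values are MAS5 signals on a linear scale, and log2(R/L) is the log2 of right over left signal within an embryo.

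Sonic hedgehog (Shh) is secreted by the notochord and floor plate and patterns the ventral neural tube, where graded exposure sets the progenitor domains from which motoneurons and ventral interneurons arise. Without ligand, Ptch1 holds the membrane protein Smo inactive. Binding of Shh to Ptch1 frees Smo, which acts through the primary cilium to turn the Gli transcription factors from repressors into activators. Ptch1, Gli1 and Hhip are themselves transcribed in response to the signal, so that their RNA is a common readout of it. Boc is a co-receptor for Shh that also guides commissural axons, and Sufu binds and restrains the Gli proteins.

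Promoter sequence from RefSeq (build GRCm38.p6) was at hand for 6 of the 9 genes (Ptch1, Smo, Gli2, Gli3, Sufu and Hhip), as windows of 300 bases from 250 before to 50 after a transcript start. They were searched on both strands for the Gli-binding consensus GACCACCCA, which 0.253% of all 32851 windows contain, and 0 of the 6 had it. Its inner part ACCACCC, found in 4.61% of all windows, was present in 1 of the 6, that of Gli2, 205 bases before the start. The GC box GGGCGG, a common promoter element held by 35.7% of all windows, was present in 5 of the 6 and absent from that of Smo. Windows of Ptch1, Gli2 and Hhip lie partly or wholly inside the annotated gene because the annotation has longer transcripts. The 30 bases of Gli2 around the match are shown with the match in capitals, on the minus strand at chr1:119053807-119053836. The 250 bases before the annotated start are shown for Smo (chr6:29735247-29735496), Gli3 (chr13:15463473-15463722) and Sufu (chr19:46396646-46396895), all on the plus strand with GC boxes in capitals, because these genes reached the signal limit used below and their windows lie fully before the gene. A match is a stretch of letters and no evidence of binding.
Gli2: aatccccctccaGGGTGGTgtccccccacc
Smo: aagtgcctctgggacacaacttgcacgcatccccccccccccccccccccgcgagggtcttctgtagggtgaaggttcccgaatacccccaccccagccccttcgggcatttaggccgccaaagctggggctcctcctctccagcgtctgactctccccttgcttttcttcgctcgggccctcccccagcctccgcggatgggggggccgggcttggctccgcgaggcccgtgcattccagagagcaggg
Gli3: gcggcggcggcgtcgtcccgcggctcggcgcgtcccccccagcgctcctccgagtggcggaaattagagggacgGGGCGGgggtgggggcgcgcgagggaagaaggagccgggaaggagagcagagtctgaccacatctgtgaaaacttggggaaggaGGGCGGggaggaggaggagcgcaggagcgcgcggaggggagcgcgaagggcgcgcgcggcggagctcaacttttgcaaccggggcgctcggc
Sufu: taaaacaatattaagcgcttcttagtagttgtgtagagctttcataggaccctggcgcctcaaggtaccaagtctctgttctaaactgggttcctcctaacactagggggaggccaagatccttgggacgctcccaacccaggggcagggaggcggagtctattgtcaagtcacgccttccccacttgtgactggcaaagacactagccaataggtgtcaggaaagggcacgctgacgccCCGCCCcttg

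The study set a signal limit, a highest signal of 200. Of the 24 probe sets 6 reached it in at least 1 pool, whereas 48.5% of all probe sets did. The 6 belong to 5 of the 9 genes (57.9% of all genes reached it), namely Shh, Ptch1, Smo (with both of its brighter probe sets), Gli3 and Sufu. Gli1, Gli2, Hhip and Boc stayed below the limit in every pool with each of their probe sets. Only the leading probe sets of Ptch1 and Sufu were at or above 200 in all 6 pools, 2 of 24 against 31.4% of all probe sets. Among 11 measured motoneuron markers, by contrast, 10 were above the limit in all pools and Chat was at 198 in 1. A signal is no detection call, and a transcript below the limit may still be present.

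None of the 6 probe sets above the limit was called different between the sides by either criterion. Applying the fold rule of the study (the same sign in all 3 embryos, and beyond 0.58 in log2, close to 1.5-fold, both for the mean and in 2 or more embryos), 0 of 6 were called, where 2.4% of all 21853 tested probe sets were called higher on the right and 1.55% higher on the left. With limma, fitted on all tested probe sets with side and embryo in the model, 0 of 6 passed an adjusted p of 0.05, and 0 had an unadjusted p under 0.05 (0% and 3.4% of all tested probe sets). Left and right pools overlapped in all 6, whereas 5.43% of all tested probe sets had groups apart in either direction. The sign of the ratio was shared by the 3 embryos in 1 of 6, that of Ptch1, against 23.5% of all tested probe sets. The median of the mean log2(R/L) was 0.06 over the 6 and 0.02 over all tested probe sets. An exact sign-flip test over 3 embryos cannot give a p under 0.25.

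**Figure D1:**
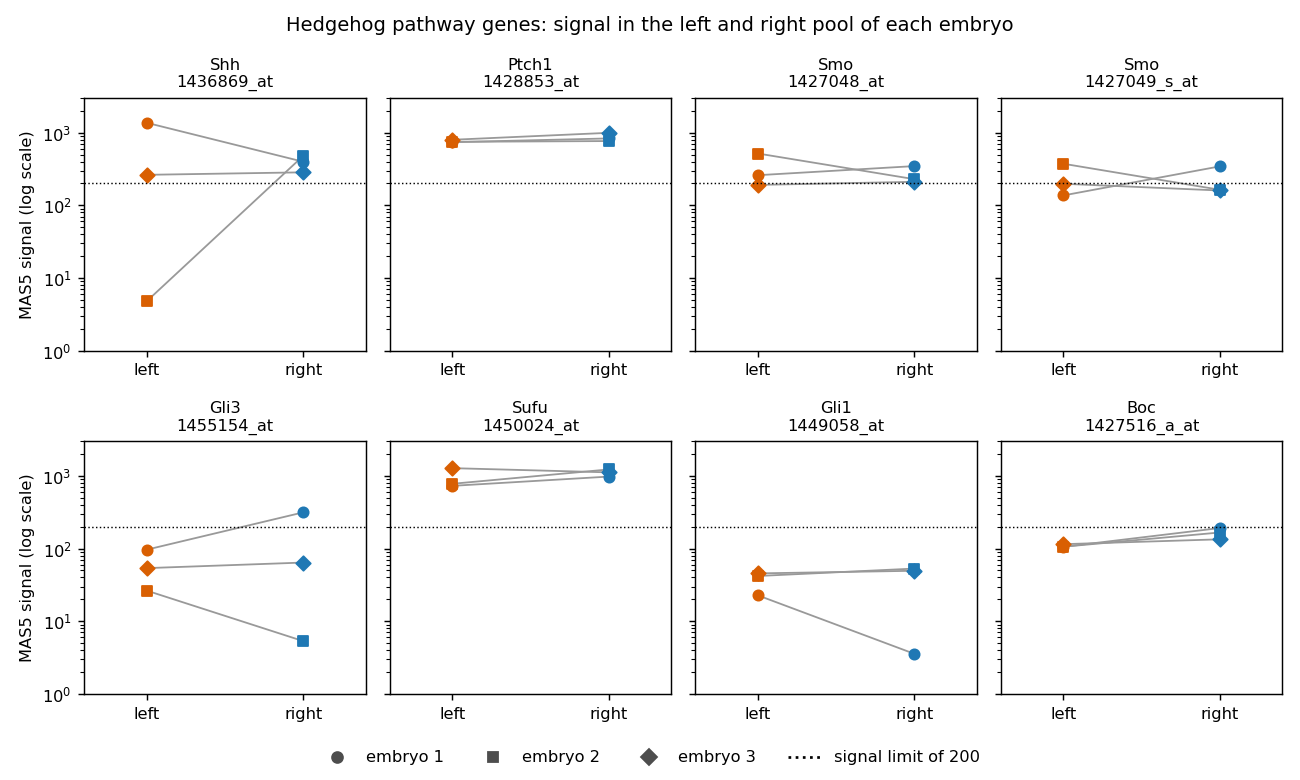
MAS5 signal (log axis) in 3 embryos (marker shape), left pools in orange joined to right pools in blue, for the 6 Hedgehog pathway probe sets that reached the signal limit of 200 (dotted line) and the brightest ones of Gli1 and Boc, which did not. Ptch1 lies between 738 and 994 in all 6 pools, whereas Shh runs from 4.81 to 1364.

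Shh, the ligand, varied more between pools than any other of the 6. Its brighter probe set read 1364, 4.81 and 263 in the left pools of embryos 1, 2 and 3, and 397, 480 and 284 in the right pools. The 3 right pools thus lay within a narrow band, while the left pools held both the highest and the lowest signal. The log2(R/L) was −1.78, 6.64 and 0.11, with a mean of 1.66 ± 4.42 (SD, n = 3 embryos) and a 95% interval by limma from −1.23 to 4.54 (adjusted p = 0.974). The size of the ratio in embryo 2 is not defined, because its left signal is far below the limit. Without embryo 2 the mean was −0.83, and with every signal under 200 raised to 200 it was −0.13. The other Shh probe set stayed between 6.99 and 56.9, and its ratio had the sign of the brighter one in all 3 embryos (−3.02, 1.70 and 2.26).

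Floor plate genes were read beside Shh, since the floor plate is the main source of Shh in the cord at this stage. In embryo 2 the right signal was higher for 8 of 9 measured floor plate genes and the left for 1 (Ferd3l, 30.9 left and 12.2 right), and 4 of the 9 had their lowest left signal in that embryo. In embryos 1 and 3 the right signal was higher for 6 and 3 of the 9. Among other lists it was higher in embryo 2 for 16 of 37 other Hedgehog pathway genes and 11 of 16 ventral progenitor genes. For mesenchyme markers this was 13 of 18, and for motoneuron markers 2 of 11. Lowest left signals in embryo 2 were found for 9 of 18 mesenchyme markers. The share of all probe sets with either trait in embryo 2 was not counted. Foxa2, a forkhead factor that defines the floor plate, read 7.08 on the left against 94.5 on the right in that embryo, and its relative Foxa1 read 7.9 and 69.9. The corresponding signals of Sulf1, a heparan sulfate sulfatase, were 20.2 and 211. Of 7 ventral interneuron markers, 4 were higher on the right in embryo 2 and 3 on the left. Sim1, a marker of the ventralmost interneurons, read 93.1 and 303, whereas Evx1 read 427 and 256 and Gata3 121 and 60.9. In embryo 1, where Shh was highest, Foxa2 read 51.4 on the left against 45.7 on the right. Foxa2, Foxa1, Ferd3l, Lmx1b and Nkx2-9 were under 200 in every pool, 5 of 9 measured floor plate genes. The summed signal of all 9 floor plate genes ranged from 1621 to 2008 on the left and from 1969 to 2600 on the right. Slit1 was the largest part of every sum, at 723 to 1190 per pool, and was higher on the right in embryo 2 only. The part of floor plate cells in the Shh signal was not tested.

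**Figure D2:**
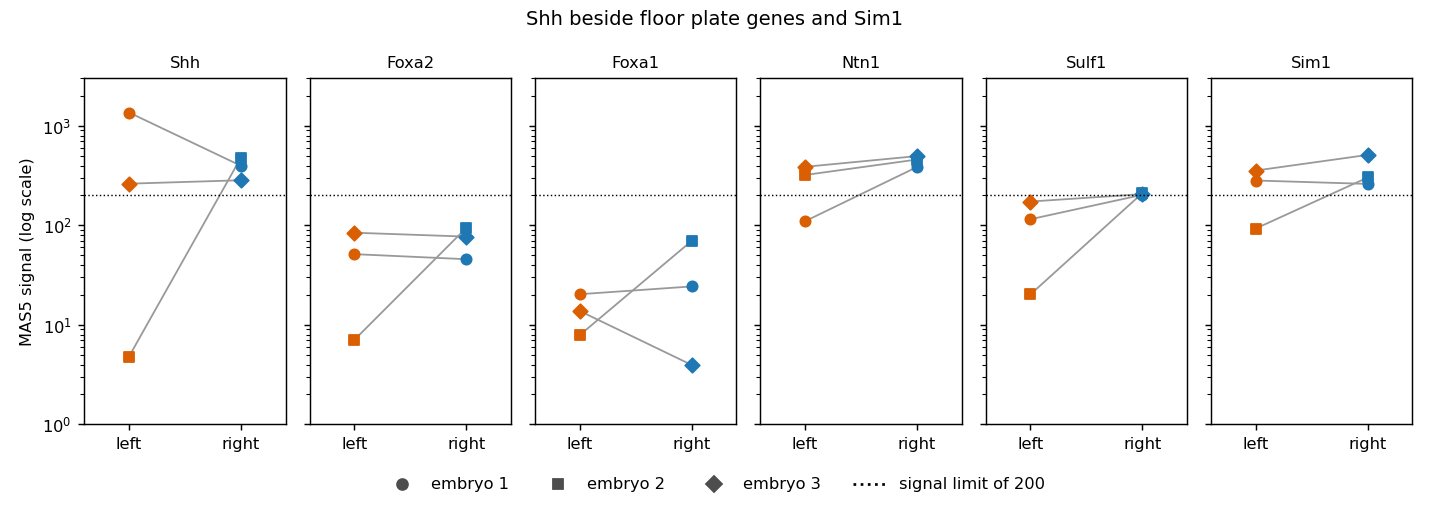
MAS5 signal (log axis) of Shh, of the floor plate genes Foxa2, Foxa1, Ntn1 and Sulf1 and of Sim1 in left pools (orange) and right pools (blue) of 3 embryos (marker shape), with the signal limit of 200 as a dotted line. In the left pool of embryo 2 (square) Shh, Foxa2, Foxa1, Sulf1 and Sim1 are each at their lowest left signal, while Ntn1 is not.

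Ntn1, which encodes the commissural attractant netrin, and Spon1, which encodes the matrix protein F-spondin, are floor plate products too. Ntn1 read 110, 321 and 388 on the left against 386, 459 and 497 on the right. Spon1 read 205, 224 and 441 on the left against 400, 457 and 513 on the right. Both were higher on the right in 3 of 3 embryos with overlapping groups. Of the 4 floor plate genes above the limit, 2 met the fold rule, Spon1 (mean log2(R/L) 0.74 ± 0.45) and Sulf1 (1.48 ± 1.67), each higher on the right (2.4% of all tested probe sets), and 0 passed with limma (adjusted p = 0.974 for both). Sulf1 reached 200 in the right pools alone and so entered the test through the side where it was higher. Its mean was 0.53 without embryo 2 and 0.05 with signals under 200 raised to 200. Ntn1 (0.89 ± 0.80) was beyond 0.58 in 1 embryo only and did not meet the rule. Slit1, the brightest of the 4, read 1134, 944 and 751 on the left against 760, 1190 and 723 on the right. It was higher on the right in embryo 2 only, with a mean log2(R/L) of −0.10 ± 0.46. The medians of other lists were also above that of all tested probe sets (0.02). They were 1.51 for mesenchyme and sclerotome, 0.77 for roof plate and dorsal progenitors and 1.45 for skeletal muscle. These medians cover only genes that reached 200 in at least 1 pool. The 4 tested skeletal muscle genes reached it in the right pool of embryo 1 alone. Of the mesenchyme genes 8 reached it there and 2 in each left pool. Of the roof plate and dorsal genes Zic1, Wnt3a and Msx1 reached it in right pools alone, and so entered the test through that side. Olig3 also reached it in the left pool of embryo 3 (204). On the right, 2 of 4 roof plate and dorsal genes (Zic1, Olig3) met the fold rule. So did 2 of 8 mesenchyme genes (Col1a2, Meox2) and 1 of 4 muscle genes (Myog), against 2.4% of all tested probe sets. Meox2 also reached 200 only in the right pool of embryo 1.

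Ptch1, the receptor and a transcriptional target of the pathway, was the steadiest of the 6. Its leading probe set read 738, 747 and 797 on the left against 832, 765 and 994 on the right. All 6 pools lay within 1.35-fold of each other, where the median over all tested probe sets was 1.9-fold. The right signal was higher in 3 of 3 embryos, but by little (log2(R/L) 0.17, 0.03 and 0.32, mean 0.18 ± 0.14), and the highest left pool exceeded the lowest right pool. The 95% interval by limma ran from −0.26 to 0.61 (adjusted p = 0.974) and so includes a difference of the size of the fold limit on the right. The other probe sets of Ptch1 reached at most 199 and 108. The first read 89.9, 84.3 and 161 on the left against 36.7, 49.5 and 199 on the right, with both pools of embryo 3 above the others.

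Smo, the seven-pass transmembrane protein that Ptch1 inhibits, was read by 2 probe sets near the limit. The brighter one read 260, 516 and 191 on the left against 346, 229 and 211 on the right. The other read 137, 373 and 198 on the left against 343, 164 and 160 on the right. In both, embryo 2 was higher on the left and embryo 1 higher on the right, whereas embryo 3 differed in sign between them. Their log2(R/L) in embryos 1, 2 and 3 was 0.42, −1.17 and 0.14 for the first and 1.33, −1.19 and −0.31 for the second. The means were −0.21 ± 0.85 and −0.06 ± 1.28 (adjusted p with limma = 0.978 and 0.995), with a 95% interval from −1.05 to 0.64 for the first, and without embryo 2 they turned positive, to 0.28 and 0.51. The last Smo probe set did not exceed 93.4.

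Sufu, the cytoplasmic inhibitor of the Gli proteins, read 728, 777 and 1275 on the left against 976, 1224 and 1115 on the right with its leading probe set. The right pools fell within the range of the left ones. The log2(R/L) was 0.42, 0.66 and −0.19, with a mean of 0.30 ± 0.44 and a 95% interval from −0.20 to 0.79 (adjusted p with limma = 0.974). Its other probe sets ranged from 18.5 to 92.6.

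The Gli genes, which encode the transcription factors of the pathway, gave low signals. Gli3, the main repressor among them, was above 200 in a single pool. That probe set read 96.5, 26.3 and 53.7 on the left against 314, 5.32 and 64.1 on the right. The log2(R/L) of 1.70, −2.31 and 0.25 averaged −0.12 ± 2.03 (adjusted p with limma = 0.995), and the mean turned positive with 50 added to each signal (0.33), without embryo 2 (0.98) or with signals under 200 raised to 200 (0.22). Gli3 is also transcribed in mesenchyme and dorsal progenitors. In the same right pool of embryo 1 the summed signal of 18 mesenchyme and sclerotome markers was 15940, against 1386 to 3093 in the other pools, that of 8 roof plate and dorsal progenitor markers was 2601 against 501 to 1423, and that of 6 skeletal muscle markers was 3764 against 165 to 348. Col1a2, a fibrillar collagen, read 8264 there and 292 to 946 elsewhere, whereas 10 of the 18 mesenchyme markers (among them Pax1, Pax9 and Twist1) were under 200 in every pool. Their part in the Gli3 signal was not tested. The brightest Gli3 probe set by mean signal stayed under 200. It read 87.8, 83.7 and 63.9 on the left against 78.9, 123 and 135 on the right, and so was not raised in the right pool of embryo 1. The last one ranged from 5.29 to 83.3 and was highest in that pool. These other Gli3 probe sets shared no sign with each other in any embryo.

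Gli1, the activator whose transcription follows Hedgehog signalling, read 22.7, 41.9 and 45.5 on the left against 3.56, 53 and 49.4 on the right with its only probe set, all far below the limit. The right pool of embryo 1 was the lowest. Gli2, the principal activator downstream of Smo, reached 141 in the left pool of embryo 1 with one probe set and 90.9 in the same pool with the other, and at most 45.7 elsewhere. The second of them read 90.9, 11.4 and 21.3 on the left against 12.6, 8.2 and 5.06 on the right, lower on the right in 3 of 3 embryos with overlapping groups. Hhip, a surface protein that sequesters the ligand and is induced by it, had 4 probe sets. The brightest read 103, 2.64 and 132 on the left against 16, 4.85 and 157 on the right, with both pools of embryo 3 above all others and both of embryo 2 at the bottom. The other Hhip probe sets ranged from 1.47 to 52.4.

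Boc, the co-receptor, was the only gene of the 9 with a probe set whose groups did not overlap. Its brightest probe set read 105, 106 and 115 on the left against 191, 166 and 134 on the right, so that the lowest right pool stood above the highest left pool. A lowest right signal above the highest left signal was found in 4.33% of all probe sets, and a gap in either direction in 7.16%, and Boc was 1 of 24. The log2(R/L) was 0.86, 0.65 and 0.22, with a mean of 0.58 ± 0.32 that fell just short of the limit of the fold rule (0.578 against 0.58). As its highest signal was 191, it was not tested in the fit above. Boc is transcribed in the dorsal cord too, and the summed signal of the 8 roof plate and dorsal progenitor markers, at 501, 540 and 944 in the left pools of embryos 1 to 3 and 2601, 1423 and 1014 in the right pools, likewise did not overlap between sides. That gap came from Zic1 (72.6, 24.5 and 137 in left pools, 1745, 693 and 150 in right pools), without which the sums of the other 7 were 429, 516 and 807 against 855, 730 and 864 and overlapped, and 4 of the 8 were under 200 in every pool. The part of these cells in the Boc signal was not tested. Of the other Boc probe sets, one read 6.85, 15.6 and 62.7 on the left against 150, 32.9 and 6.88 on the right, with the opposite sign in embryo 3, and the other did not exceed 13.3.

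Over all 24 probe sets, 4 had the same sign in the 3 embryos, against 24.4% of all probe sets on the array, 3 of them higher on the right (Ptch1, Boc and 1 of Hhip) and 1 higher on the left (Gli2). With no signal limit, 2 of the 24 met the fold rule. The dimmer Gli2 probe set was higher on the left (3.77% of all probe sets) and one Hhip probe set higher on the right (6.23%). The former read at most 90.9 in any pool and the latter from 2.52 to 49.9, far under the limit.

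**Figure D3:**
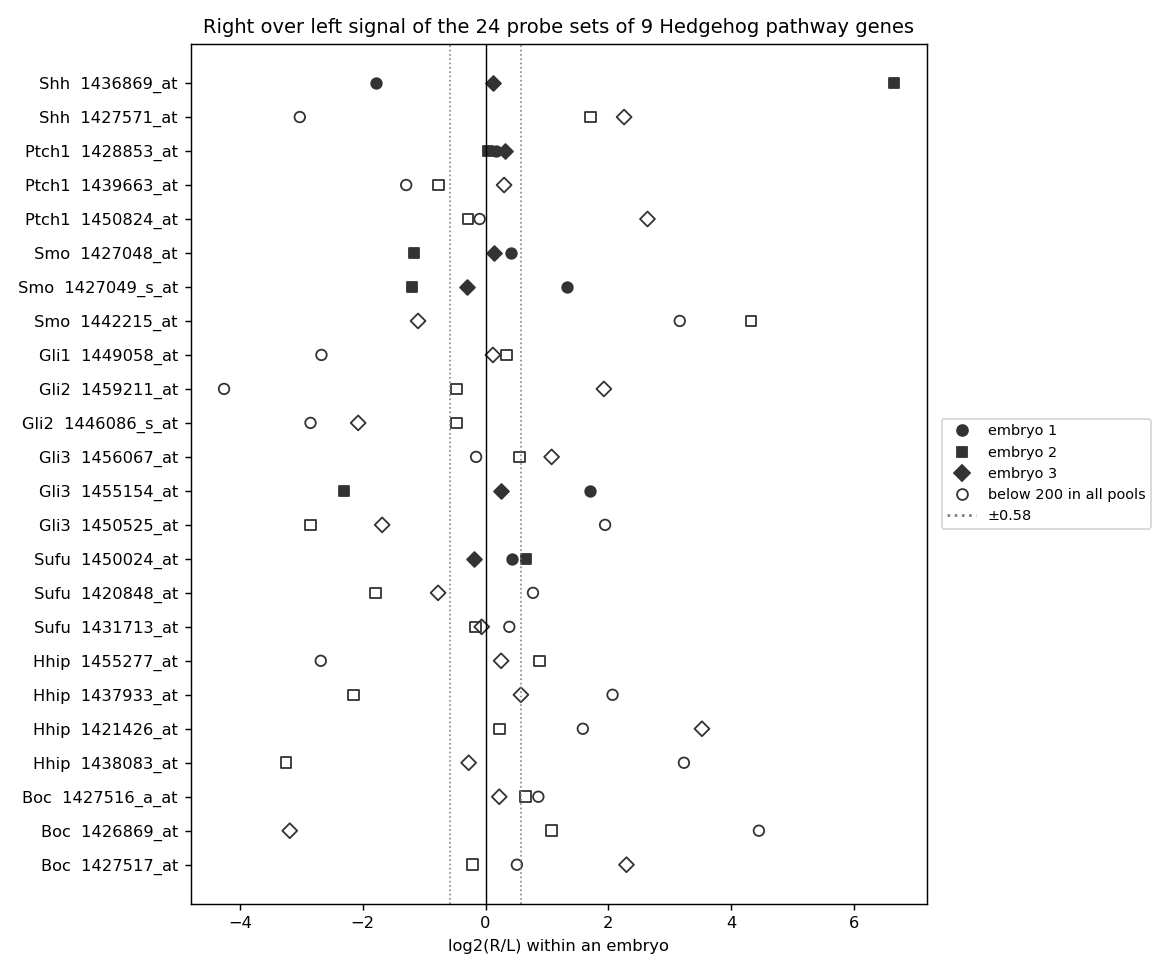
Log2(R/L) within each of 3 embryos (marker shape) for the 24 probe sets of the 9 Hedgehog pathway genes. Filled markers are the 6 probe sets that reached a signal of 200, open markers the 18 that did not, and dotted lines stand at 0.58 in either direction. Among filled markers all 3 embryos lie on the same side of 0 for Ptch1 alone.

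The 3 embryos come from 1 litter, and the spread between them was tested as well. A moderated F test of the embryo term in the same limma fit called 0 of 6 Hedgehog probe sets (59 of 21853 probe sets, or 0.27%, were called in all), and 0 of 6 had an unadjusted p under 0.05 (15.3% of all). For Shh the adjusted p was 0.389, and for Gli3 0.387. Leaving out embryo 2 brought Shh past the threshold, as embryos 1 and 3 then differed with an adjusted p of 0.0038 in limma and geometric means of 736 and 273. In that setting 1291 of 20825 probe sets were called, and the embryo left out is the one whose left pool was lowest.

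Other genes of the pathway come from a list of 41, of which 37 were measured and 28 reached the limit with the brightest probe set (57.6% of all genes did). Besides the ligands Dhh and Ihh it holds co-receptors, proteins that release or process the ligand, cilium proteins and the kinases and ubiquitin ligases that act on the Gli proteins. By the fold rule 0 of 28 were called (3.94% of all tested probe sets in either direction), and with limma 0 passed an adjusted p of 0.05, while 1 on each side had an unadjusted p under 0.05. Their median log2(R/L) was −0.004, and that of all tested probe sets 0.02. The kinase Csnk1a1 read 9497 to 11010 over the 6 pools, Gsk3b 5457 to 6637 and the protein kinase A subunit Prkar1a 3783 to 6362, with left and right pools overlapping in each. Dhh, Ihh, Lrp2, Disp1, Hhat, Scube2, Kif7, Evc and Evc2 were under 200 in every pool. Hence neither Dhh nor Ihh was read above the limit.

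Gas1, a membrane-anchored co-receptor that acts alongside Boc and Cdon, was the exception in this list. It read 3723, 1167 and 3336 on the left against 6399, 1860 and 3775 on the right. Both pools of embryo 2 were below the other 4, and Gas1 differed between embryos (adjusted p = 0.03 by limma), the only one of the 28 to do so. The call was lost without embryo 2 (0.217), without a trend in the variances (0.256), with no signal limit (0.102) and with signals under 200 raised to 200 (0.254), and over all alternatives the adjusted p ran from 2.6e-05 to 0.256. The right signal was higher in 3 of 3 embryos (log2(R/L) 0.78, 0.67 and 0.18, mean 0.54 ± 0.32), which did not reach 0.58 and did not pass with limma (adjusted p = 0.974). Gas1 is abundant in mesenchyme as well. It was highest in the right pool of embryo 1, which also had the highest sum of mesenchyme markers (15940). The lowest sum (1386) and the lowest Gas1 signal (1167) were both in the left pool of embryo 2. In the right pool of embryo 2 the sum was the next highest (3093), whereas Gas1 read 1860. The part of mesenchyme in the Gas1 signal was not tested. The other co-receptor, Cdon, read 415, 636 and 342 on the left against 633, 558 and 279 on the right, with overlapping groups and no shared sign. Mgrn1, a ubiquitin ligase that limits Smo at the cilium, read 1232, 1222 and 1027 on the left against 786, 881 and 882 on the right. Its groups did not overlap, yet its mean of −0.45 ± 0.22 did not reach the fold limit and did not pass with limma (adjusted p = 0.974). Lowest left signals above the highest right signals occurred in 2.45% of all tested probe sets.

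**Figure D4:**
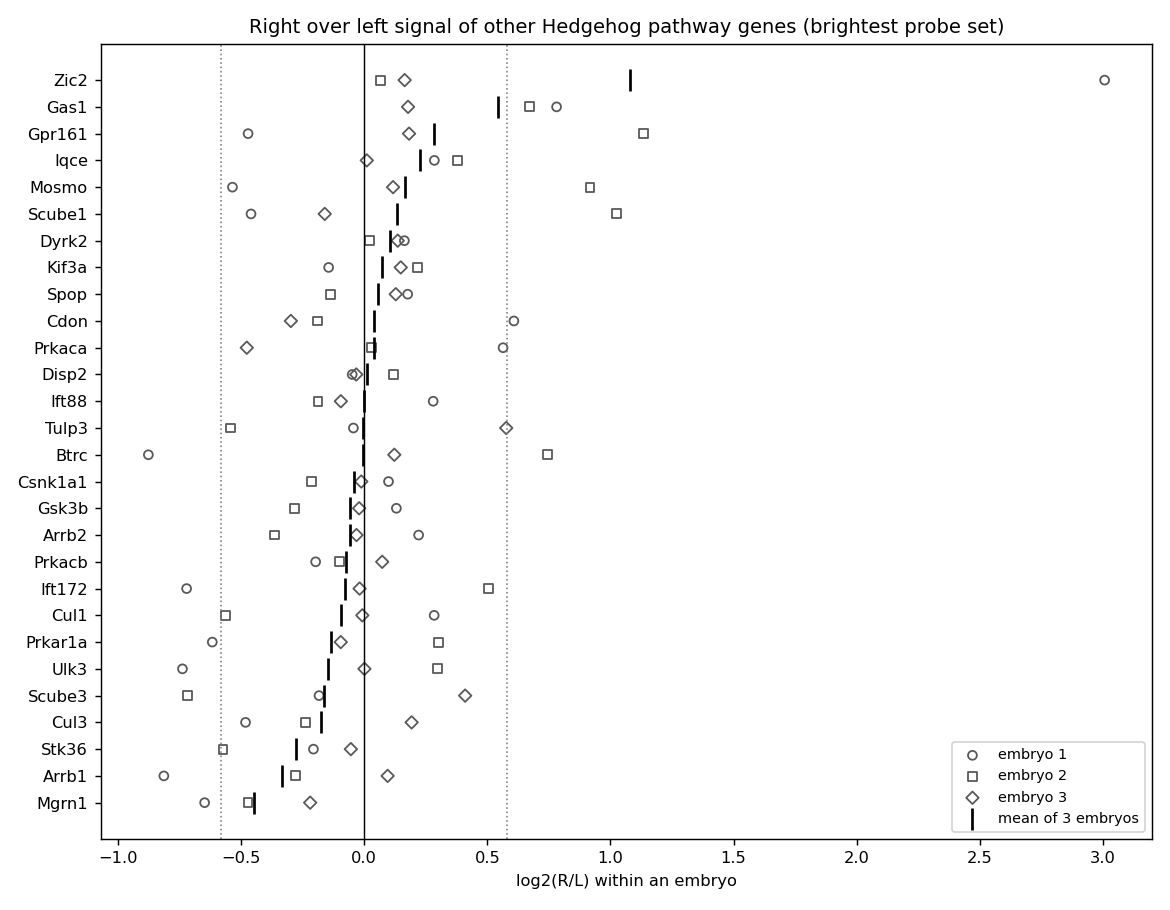
Log2(R/L) in each of 3 embryos (open markers) and their mean (bar) for the 28 other Hedgehog pathway genes that reached a signal of 200, brightest probe set of each, ordered by mean. Dotted lines stand at 0.58 in either direction. For 6 of the 28, Gas1 and Mgrn1 among them, all 3 embryos lie on 1 side of 0 (23.5% of all tested probe sets). The wide spread of Zic2, also among the 6, comes from embryo 1. It reached 200 only in the right pool of that embryo (230), and so entered the test through the side where it was higher.

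Ventral cord progenitor genes were read as a list of 16, all measured and 9 above the limit, which holds genes of domains that Shh sets and the general progenitor genes Sox2, Nes and Hes5. Class II genes such as Nkx2-2, Nkx6-1 and Olig2 are induced by the signal, and class I genes such as Pax6 and Irx3 are repressed by it. Olig2, which defines the motoneuron progenitor domain, read 1.48, 56.8 and 62 on the left against 35.3, 76.4 and 44.2 on the right, and Nkx6-1 did not exceed 178. Nkx2-2 read 77.8, 43.7 and 219 on the left against 168, 135 and 180 on the right. Not all genes of this list were near or under the limit. Nkx6-2 read 723 to 1039 over the 6 pools, with overlapping groups and a mean log2(R/L) of 0.09. Of the 9 genes 1 met the fold rule, Pax6, which was higher on the right (2.4% of all tested probe sets). It read 77.4, 217 and 106 on the left against 174, 418 and 184 on the right, with a mean log2(R/L) of 0.97 ± 0.19, overlapping groups and an adjusted p of 0.974 by limma. With signals under 200 raised to 200 the mean was 0.31, under the fold limit, and without embryo 2 Pax6 stayed below the limit of 200 and was not tested. The median over the 9 was 0.11.

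The same genes were then compared between embryos. With limma 0 of 9 passed an adjusted p of 0.05 for the embryo term, and 6 had an unadjusted p under 0.05 (15.3% of all tested probe sets), namely Pax6, Irx3, Irx5, Sox2, Nes and Hes5. Irx5, an Iroquois factor, was highest in both pools of embryo 2 (1926 left, 1960 right), above embryo 1 (1121, 1131) and embryo 3 (1267, 1203). Nes, an intermediate filament of progenitors, read 2056 and 2570 in embryo 1 and 3380 to 3902 in the others. Sox2, a factor of dividing progenitors, read 26.3 and 193 in embryo 1 and 443 to 964 in the others (adjusted p = 0.115 by limma). Under the alternatives its adjusted p by limma ran from 2.34e-08 (without embryo 2) to 0.359 (without a trend). It passed only without embryo 2 and with the arrays scaled to 1 median (0.0317), and was 0.288 without embryo 3 and 0.254 with a floor of 200. For both genes embryo 1 was lowest on either side. Among 11 motoneuron markers 6 had an unadjusted p under 0.05 for the same term and 1 passed, Prph, a motoneuron intermediate filament (adjusted p = 0.03 by limma). Its left and right signals were 23019 and 23486 in embryo 1, against 15618 and 14011 in the second and 10514 and 10752 in the third. Embryo 1 was highest there, and the call was lost without embryo 3 (0.269), without a trend (0.292), with no signal limit (0.115) and with a floor of 200 (0.254), over a range of 1.71e-05 to 0.292. By comparison Ptch1 had geometric means of 784, 756 and 890 in the 3 embryos (adjusted p = 0.818 by limma).

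The genes whose pattern over the 6 pools was most like that of a member were found among tested probe sets of 1 other gene, by the root mean square difference of log2 signal after subtracting each mean. For Shh they were Sstr1 (0.81), Ing3 (0.81) and Frzb (0.88), where the median over all tested probe sets was 2.59. All 3 had their lowest signal in the left pool of embryo 2, from 2.94 to 6.26. For Ptch1 they were Fam193a (0.041), Them4 (0.054) and Kri1 (0.055), with a median of 0.344 over all. For Gli1 they were Phf20l1 (0.175), Slc4a8 (0.205) and Nedd4l (0.248), each lowest in the right pool of embryo 1.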

How the data were processed

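Amplified, biotin-labelled RNA of 6 laser-captured pools was measured on Affymetrix mouse expression arrays. The authors computed MAS5 signal intensities in Affymetrix Expression Console (version not given in the sources used here), and the deposited intensity values have a mean of 500 on every array once the lowest and highest 2% of probe sets are left out. Detection calls were not part of the table, so the present-call filter of the methods was not applied. Of 45101 probe sets 64 controls were left out. Signals were taken to log2 without an added constant, and probe sets whose highest signal reached 200 were tested (21853). limma 3.58.1 in R 4.3.3 fitted side and embryo with a variance trend, and Benjamini-Hochberg adjustment ran over every probe set tested. Tables were made with Python 3.11.15. The embryo served as block because both pools of a number come from 1 animal and the same sections (correlation of deviations 0.241, 0.215 and 0.495 for embryos 1, 2 and 3). Each gene outside the members was read by its brightest probe set annotated to it alone. Up to 4 genes per list were picked by the fold rule or the smallest p, and 3 by signal. Not all of these are named above, and some genes outside this pick are named too. Fits were tested on simulated data. The members and lists were chosen with earlier results of these data known. Some genes of the pathway list were not analysed here. Alternatives were quantile and median scaling, 50 added, a floor of 200, other signal limits, no variance trend, no replicate block, stricter fold limits and each embryo left out. The number of arrays limits the precision.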

Additional observations from a re-analysis of the deposited data

How the results depend on the processing

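The count of Hedgehog probe sets called by the fold rule stayed at 0 under quantile normalization, median scaling, 50 added, a floor of 200, stricter signal or fold limits and without any 1 embryo (0 to 0), and became 2 with no signal limit. The limma count for right against left was 0 under every alternative, with no replicate block and without any 1 embryo included. For the embryo term it ran from 0 to 1 when an embryo was left out (1, Shh, without embryo 2) and was otherwise 0. Of 56 alternative values of the 6 mean ratios, 48 kept their direction and 8 reversed, where the cause was not tested beyond the setting itself. Settings that changed only the signal limit leave a mean ratio as it was. Their values are among the 48 and could not reverse. Shh became −0.13 with a floor of 200 and ran from −0.83 (without embryo 2) to 3.38 when an embryo was left out. The brighter Smo probe set ran from −0.52 to 0.28 (without embryo 2), and the other from −0.75 to 0.51 (without embryo 2), with 0.07 without embryo 3. Gli3 became 0.33 with 50 added and 0.22 with a floor of 200, and ran from −0.30 to 0.98 (without embryo 2). Ptch1 and Sufu kept their direction under every alternative run, with means from 0.10 (without embryo 3) to 0.25 (without embryo 2) for Ptch1 and from 0.12 (without embryo 2) to 0.54 (without embryo 3) for Sufu when an embryo was left out. Over all tested probe sets the fold rule called 862, and from 133 (beyond the limit in all 3 embryos) to 4501 (no signal limit) under the alternatives. The embryo term called 59, and from 0 (without a trend) to 1291 (without embryo 2), and the side term 0, or 2 without embryo 1 and 21 without embryo 2. Values for genes outside the 9 were recomputed by a choice made after seeing the data. The arrays carry no detection calls, so signals under 200 are not told apart from background.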
